A study of Mus musculus with 2 samples.

Results

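The genes described here encode proteins that anchor and cross-link thin filaments at the Z-disc, the border between neighbouring sarcomeres of striated muscle. Members were taken by gene name as listed: Actn1, Actn2 and Actn4 (alpha-actinins), Nebl (nebulette), Tcap (telethonin), Myoz2 (myozenin 2), Synpo2l, Sorbs2 and Fhod3. All 9 had reads, among 15410 annotated mouse genes with reads in the series. Reads were summed over every transcript model that carried the gene's name, and exon chains came from the deposited annotation of each library, with all coordinates in mm10. Each deposited model is classed as known, incomplete, new spliced or genomic. Incomplete models hold a run of a known transcript's introns, or are a single-exon part of such a transcript. Genomic is a class for models that look like unspliced or genomic sequence.

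The samples were hearts of male B6CASTF1/J mice, a cross of C57BL/6J and CAST/EiJ, aged 18 to 20 months. Total RNA was converted to cDNA and read as long molecules, and 2 µg of RNA entered each library. The series holds 1 group with 2 libraries, labelled biological replicates 2 and 1, which carry the same donor identifier. No condition was therefore contrasted, and every test compared the libraries with each other, against counting error. The labels do not say that the libraries came from separate animals, so the spread between them may be technical.

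In the Z-disc, antiparallel actin filaments from adjacent sarcomeres are tied together by alpha-actinin, which also binds the end of titin. Telethonin caps titin there, myozenins bind both alpha-actinin and the phosphatase calcineurin, and nebulette lies along the thin filament end. Adaptors such as the products of Synpo2l and Sorbs2 link this lattice to actin and signalling proteins, and the formin Fhod3 assembles actin filaments in cardiac sarcomeres.

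Replicate 2 held 1003999 mouse reads and replicate 1 held 688861. A gene with 0 reads may therefore still have had up to 2.99 CPM (counts per 1000000 mouse reads) in replicate 2 and 4.36 CPM in replicate 1. Both libraries had the profile of heart muscle, since the 7 cardiomyocyte markers summed to 36916 CPM in replicate 2 and 34942 CPM in replicate 1. The 7 markers of skeletal fibres summed to 0.996 and 1.45 CPM, and 5 of them, Myh1, Myh2, Myh4, Mylpf and Actn3, had no reads. Smooth muscle and mural markers summed to 329 and 337 CPM, fibroblast markers to 511 and 684 CPM, endothelial markers to 294 and 215 CPM and macrophage markers to 104 and 107 CPM. In bulk tissue, as here, fewer cells of a type and less RNA per cell cannot be told apart.

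Telethonin and alpha-actinin 2 transcripts led the members, followed by myozenin 2, and these 3 genes held 93.5% of the members' reads in replicate 2 and 93.8% in replicate 1. Each long read was counted as 1 transcript, so levels were compared between genes as CPM without division by length. Whether long and short transcripts were read equally well was not tested, so levels and ranks are those of reads. All members together reached 6424 ± 137 CPM (SD, n = 2). Tcap averaged 3215 ± 104 CPM and ranked 31st of all genes, Actn2 averaged 2057 ± 191 CPM at rank 62 and Myoz2 averaged 744 ± 52.2 CPM at rank 198. Fhod3 followed at 149 ± 4.95 CPM. The libraries did not overlap between any of these neighbours.

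The next 4 members lay close together. Synpo2l averaged 73.7 ± 5.66 CPM, Sorbs2 68.1 ± 12.1 CPM, Actn4 57.7 ± 1.52 CPM and Nebl 55.1 ± 10.3 CPM (SD, n = 2 each). Nebl, at 47.8 CPM in replicate 2 and 62.4 CPM in replicate 1, overlapped Actn4 and Sorbs2, and Sorbs2 overlapped Synpo2l. Synpo2l was above Actn4 and Nebl in both libraries, and the lower Sorbs2 value, 59.5 CPM, was just above the higher Actn4 value, 58.8 CPM. Actn1 was far lower, with 3 reads in replicate 2 and 4 in replicate 1.

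**Figure D1:**
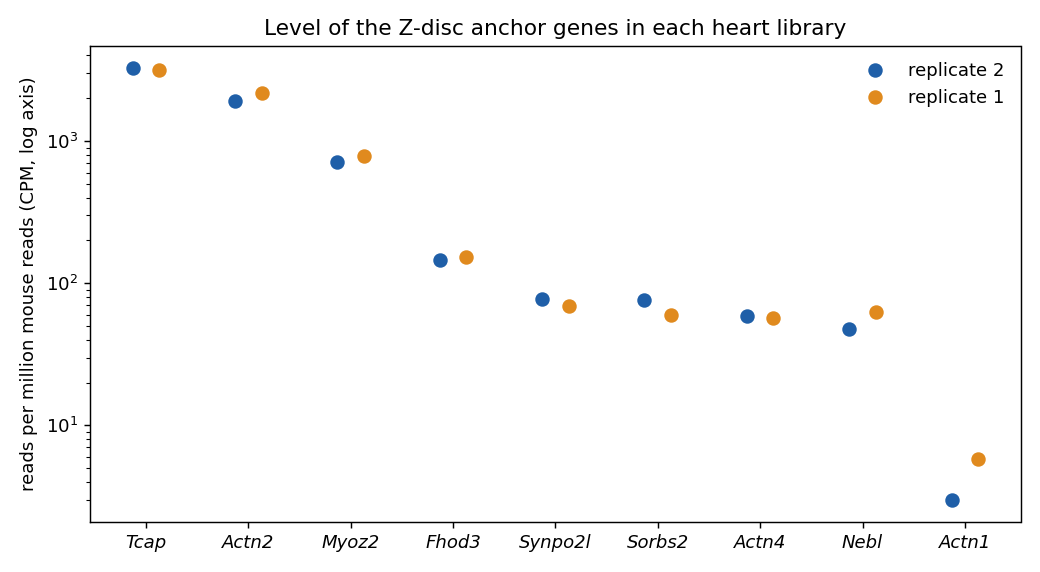
Level of each Z-disc anchor gene in CPM (log axis), with 1 point for replicate 2 and 1 for replicate 1. Tcap, Actn2 and Myoz2 stand at 707 CPM or more in both libraries, 4 members lie between 47.8 and 77.7 CPM, and Actn1 is the lowest.

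The levels were then set side by side in a two-sided exact binomial test, adjusted by the Benjamini-Hochberg method over the 8836 genes whose 2 read counts summed to 10 or more. Among all genes, 3.36% were called at 0.05, and 2% were called with replicate 2 lower. Of the 8 members tested, 1 was called, with replicate 2 lower, and Actn1 was too low to be tested. The called member was Actn2, with 1929 reads (1921 CPM) in replicate 2 and 1510 reads (2192 CPM) in replicate 1. Its log2 ratio, replicate 2 over replicate 1 with 1 CPM added to each, was -0.19, with an interval of -0.29 to -0.09 for counting error (exact binomial test, adjusted p = 0.00619).

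The call on Actn2 depended on how the libraries were scaled. With trimmed-mean (TMM) factors its log2 ratio was -0.09 (exact binomial test, adjusted p = 0.451), and with DESeq2 size factors it was -0.10 (adjusted p = 0.444). Under these scalings Tcap was called instead, with a log2 ratio of 0.16 under both (exact binomial test, adjusted p = 0.00249 with TMM and 0.00292 with DESeq2 factors). Scaled to total mouse reads, its log2 ratio was 0.07 (adjusted p = 0.545). The 9 synthetic spike-ins with at least 100 reads in each library ranged from -0.23 to 0.25 in log2 ratio of their shares of spike-in reads. The ratios of Actn2 and Tcap lay inside this range. Since spike-ins with as few as 100 reads could enter it, the range includes their counting error. It cannot tell whether the differences in Actn2 and Tcap are technical.

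No other member passed. Tcap had 3302 reads (3289 CPM) in replicate 2, against 2164 reads (3141 CPM) in replicate 1. Myoz2 had 707 and 781 CPM, a log2 ratio of -0.14 with an interval of -0.31 to 0.02. Fhod3 had 145 and 152 CPM with a log2 ratio of -0.07, and TMM or DESeq2 factors turned its sign. Synpo2l stood at 77.7 CPM in replicate 2, against 69.7 CPM in replicate 1 (log2 ratio 0.15). Actn4 was at 58.8 and 56.6 CPM (0.05), and Sorbs2 at 76.7 and 59.5 CPM (0.36). Replicate 2 was thus the higher library in 4 of the 8 tested members. For the low members the test had little precision: the interval for Nebl ran from -1.01 to 0.24 and that for Sorbs2 from -0.20 to 0.95. The median log2 ratio of the 8 tested members was -0.01, beside -0.06 over all tested genes.

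**Figure D2:**
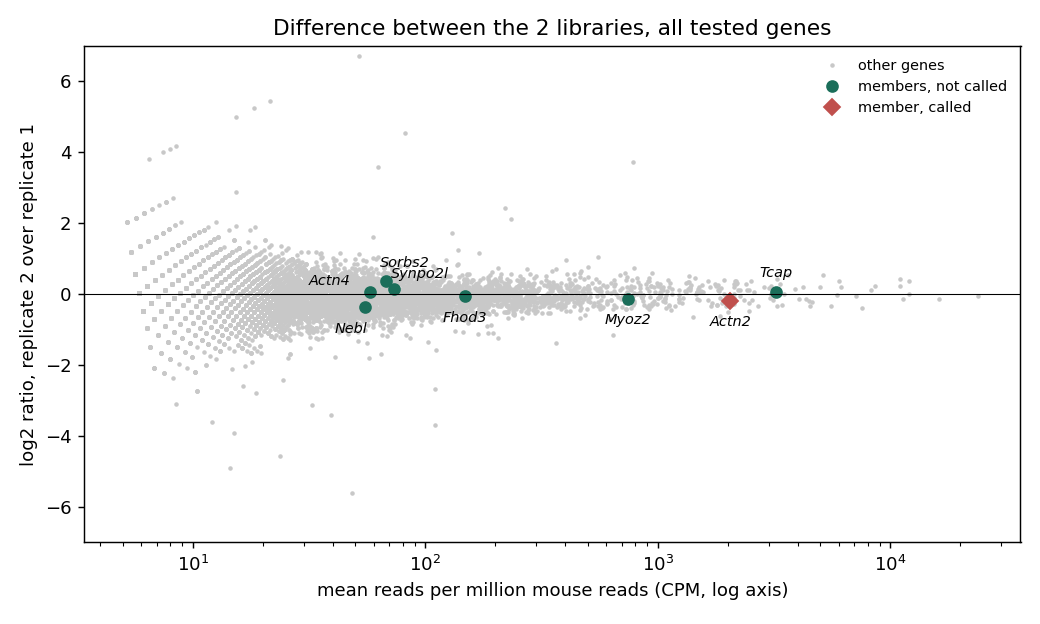
Log2 ratio of replicate 2 over replicate 1 against mean CPM (log axis) for all 8836 tested genes, with the 8 tested members named. The members lie between -0.38 (Nebl) and 0.36 (Sorbs2), and Actn2, the called member, stands at -0.19.

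Among the alpha-actinins, the muscle form Actn2 supplied nearly all reads. It held 96.9% of actinin reads in replicate 2 (95% Clopper-Pearson interval 96.0 to 97.6, 1991 reads) and 97.2% in replicate 1 (96.3 to 98.0, 1553 reads). Actn4, the non-muscle form found in many cell types, held 2.96% (2.26 to 3.81) and 2.51% (1.79 to 3.42). Actn1, the other non-muscle form, held 0.151% and 0.258%. Actn3, the actinin of fast skeletal fibres, had no reads, which allows up to 0.151% of actinin reads in replicate 2 and 0.193% in replicate 1. The intervals of each gene overlapped between the libraries, and they cover counting error only.

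Actn2 lies on chromosome 13 (12269426 to 12340760, minus strand), and its reads fell into a full-length and a shortened class. The annotated transcript Actn2-201, with 21 exons, 3013 nt and a coding length of 2682 nt, had 1071 reads in replicate 2 and 892 in replicate 1, or 55.5% (53.3 to 57.8) and 59.1% (56.5 to 61.6) of the gene's reads. A single incomplete model of 10 exons had 608 reads in replicate 2 and 436 in replicate 1, or 31.5% and 28.9%. This model begins at the first base of exon 12 as deposited and runs to the annotated 3' end, so it lacks exons 1 to 11, which hold 1255 coding bases and the start codon. The next model, 6 exons long, had 30 and 14 reads. One new spliced model had at least 5 reads in each library, with 6 and 5, and it differs from Actn2-201 by an exon 14 that is 2 nt shorter. Single-exon models classed as genomic, pooled and singled out after their values were seen, had 3 reads in replicate 2 and 26 in replicate 1. This gap depends on the class. By place, whatever the class, single exons at the 3' end held 14 of 1929 reads in replicate 2 and 24 of 1510 in replicate 1.

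The exon in which a spliced Actn2 read began was concentrated in exons 1 and 12. Exon 1 held 1119 of 1912 spliced reads in replicate 2 and 924 of 1484 in replicate 1. Exon 12 held 621 reads (32.5%, interval 30.4 to 34.6) and 446 reads (30.1%, 27.7 to 32.5). None of the other 19 exons began more than 30 reads in replicate 2 or 14 in replicate 1, and both libraries had the same 2 peaks.

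Incomplete models held 41.1% of Actn2 reads in replicate 2 and 36.2% in replicate 1. The medians over the 4087 genes with 20 reads or more per library were 4.76% and 4.35%. Within the incomplete reads of a gene, a concentration on 1 first exon like that in Actn2 was not rare. Among incomplete models that keep the 3' end, the most used first exon took 79.6% of such Actn2 reads, with 612 of 776 in replicate 2 and 440 of 546 in replicate 1. Of the 267 genes that had 20 or more such reads per library, 95 had a share at least as high, and the median was 61.3%. Whether these reads are separate transcripts or the 3' parts of longer ones was not tested. The sequence of exon 12 (chr13:12288507-12288657, mm10, minus strand, all 151 bases coding, from GENCODE M21) is shown because the second peak of starts falls there; capitals mark the exon and lower case the 12 transcript bases on each side.
Actn2 exon 12: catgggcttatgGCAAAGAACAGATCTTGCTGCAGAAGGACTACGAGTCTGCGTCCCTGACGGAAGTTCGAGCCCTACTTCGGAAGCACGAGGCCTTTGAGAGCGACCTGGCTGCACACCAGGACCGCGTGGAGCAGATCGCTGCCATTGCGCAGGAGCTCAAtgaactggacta

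**Figure D3:**
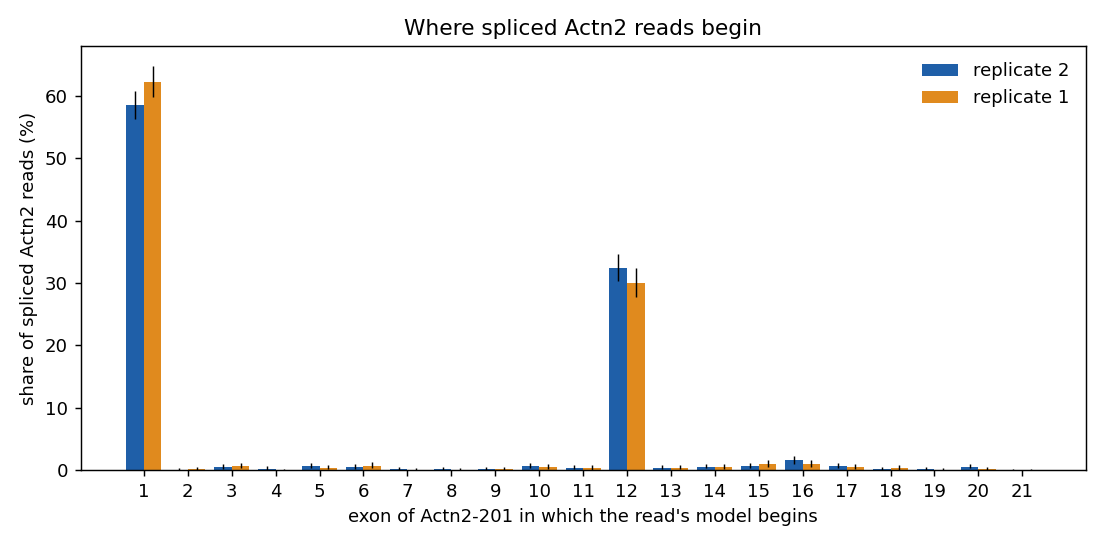
Share of spliced Actn2 reads (%) whose model begins in each of the 21 exons of Actn2-201, in replicate 2 and replicate 1, with 95% Clopper-Pearson intervals. Bars stand at exon 1 (58.5% and 62.3%) and exon 12 (32.5% and 30.1%), and all other exons are below 2%.

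Actn4 (chromosome 7, 28893248 to 28962340, minus strand) was read mostly as its annotated full-length transcript. Actn4-201, with 21 exons and 3877 nt, had 41 of 59 reads in replicate 2 and 29 of 39 in replicate 1. Single-exon models at the 3' end, pooled, had 10 and 5 reads. The third model, with 1 and 2 reads, carries both of the less used exons described next, and no new spliced model reached 5 reads in each library.

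Actn4 has 2 pairs of exons used in place of each other, which were singled out after their values were seen and fall outside the inclusion range of 5 to 95% used to call an exon alternative. The first pair consists of 2 exons of 86 nt in the part that encodes the actin-binding domain. The exon of Actn4-201 (chr7:28911490-28911575) was in 44 of 45 covering reads in replicate 2 and 29 of 31 in replicate 1, and the other (chr7:28909903-28909988) in 1 and 2. The second pair lies in the part that encodes the calcium-binding EF hands at the other end of the protein. Its 81-nt exon (chr7:28895432-28895512) was in 47 of 48 covering reads in replicate 2 and 31 of 34 in replicate 1, while the 66-nt exon of Actn4-210 (chr7:28895121-28895186) was in 1 and 3. In both pairs the same exon prevailed in each library, and the counts of the pair add up to all covering reads. The pairs are shown because the choice decides a stretch of the protein; capitals mark the exon, all of it coding, 12 bases of transcript flank each side, and the 86-nt exons have the same base at 65 positions and differ at 21.
Actn4-201 exon 8: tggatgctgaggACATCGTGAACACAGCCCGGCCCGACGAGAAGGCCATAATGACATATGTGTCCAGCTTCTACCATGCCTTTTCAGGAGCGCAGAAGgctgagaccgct
Actn4 other 86-nt exon, exon 8 of its transcript: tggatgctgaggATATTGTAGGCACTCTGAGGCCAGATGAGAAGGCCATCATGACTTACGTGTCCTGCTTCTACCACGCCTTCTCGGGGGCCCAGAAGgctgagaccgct
Actn4-201 exon 19: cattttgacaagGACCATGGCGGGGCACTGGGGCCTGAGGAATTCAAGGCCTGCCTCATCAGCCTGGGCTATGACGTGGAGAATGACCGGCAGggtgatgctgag
Actn4-210 exon 5: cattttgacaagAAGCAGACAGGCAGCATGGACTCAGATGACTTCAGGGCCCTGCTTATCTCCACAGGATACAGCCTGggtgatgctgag

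Actn1 (chromosome 12, 80167547 to 80260371, minus strand) gave too few reads for any share. Its 3 models with the most reads were pooled single-exon 3' models with 0 reads in replicate 2 and 3 in replicate 1, the shorter of its 2 coding transcripts with 1 and 1, and Actn1-201 with 1 and 0. Only 3 spliced reads in replicate 2 and 1 in replicate 1 began at its annotated first exon.

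Tcap, the titin cap, is a short gene on chromosome 11 (98383811 to 98384953, plus strand) with 1 annotated transcript of 2 exons, 948 nt and a coding length of 501 nt. Tcap-201 had 3114 of 3302 reads in replicate 2 and 2060 of 2164 in replicate 1. These are 94.3% (93.5 to 95.1) and 95.2% (94.2 to 96.1). Reads that ran unspliced across its only intron made up nearly all the others, at 182 reads (5.51%, 4.76 to 6.35) in replicate 2 and 100 reads (4.62%, 3.78 to 5.59) in replicate 1. The intervals overlapped. The next model, whose first exon starts upstream, had 3 and 2 reads.

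Myoz2, the calcineurin-binding myozenin of heart and slow muscle, lies on chromosome 3 (123006206 to 123035015, minus strand). Myoz2-201, with 6 exons, 1181 nt and a coding length of 792 nt, had 593 of 710 reads in replicate 2 and 458 of 538 in replicate 1, or 83.5% (80.6 to 86.2) and 85.1% (81.8 to 88.0). The remaining reads were spread over minor forms. Myoz2-203, annotated as a target of nonsense-mediated decay, had 19 and 11 reads. Single-exon 3' models, pooled, had 16 reads in each library.

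One new spliced Myoz2 model had at least 5 reads in each library. It had 14 reads in replicate 2 and 14 in replicate 1, and it differs from Myoz2-201 by the absence of exon 3 (chr3:123026063-123026232), whose 170 bases are not a multiple of 3. Over all models that cover it, exon 3 was skipped by 16 of 660 reads in replicate 2 and 15 of 493 in replicate 1, so 97.6% (96.1 to 98.6) and 97.0% (95.03 to 98.3) included it. The 172-nt exon of Myoz2-203 (chr3:123033192-123033363) was included by 3.15% (1.96 to 4.78) and 2.38% (1.23 to 4.11). Both exons fall outside the same range of 5 to 95% and were singled out after their values were seen. Exon 3 is shown because its loss defines the new model; capitals mark it, with 12 bases of transcript on each side.
Myoz2-201 exon 3: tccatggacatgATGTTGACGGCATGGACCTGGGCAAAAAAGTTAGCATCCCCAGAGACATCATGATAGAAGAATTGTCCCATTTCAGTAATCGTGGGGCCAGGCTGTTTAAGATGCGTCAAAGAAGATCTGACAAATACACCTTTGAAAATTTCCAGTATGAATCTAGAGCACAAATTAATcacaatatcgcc

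Nebl, whose product nebulette is a short cardiac relative of nebulin built from actin-binding repeats, had few reads on known transcripts, and its most read model is a chain that the annotation lacks. The gene lies on chromosome 2 (17343909 to 17731464, minus strand). Known transcripts held 2 of 48 reads in replicate 2 and 1 of 43 in replicate 1, or 4.17% and 2.33%, beside medians of 81.3% and 82.6% over the 4087 genes that had 20 reads or more per library. The leading model, with 16 reads in each library, has 26 exons. Its internal exons are those of the 28-exon transcript Nebl-202 without exons 19 and 21.

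Exons 19 and 21 of Nebl-202 were absent from every read that covered them. Exon 19 (chr2:17382860-17382952) was skipped by 32 reads in replicate 2 and 35 in replicate 1, and exon 21 (chr2:17378108-17378200) by 27 and 30. A count of 0 allows inclusion of up to 9.38% and 8.57% for exon 19 and up to 11.1% and 10% for exon 21. Both exons are 93 nt long, or 31 codons. The annotated Nebl-212, without a coding sequence, spans both (17375019 to 17390939). By its 5 exons and 709 nt it appears to lack both, so these skips may not be new to the annotation.

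Exon 9 of Nebl-202 was alternative. This exon (chr2:17417893-17417997), of 105 nt or 35 codons, was included by 25 of 33 covering reads in replicate 2 and 27 of 35 in replicate 1. These are 75.8% (57.7 to 88.9) and 77.1% (59.9 to 89.6), and the exact Fisher test gave an adjusted p of 1. The third most read model, of 25 exons with 3 and 4 reads, lacks exons 9, 19 and 21. The 3 exons are shown because they are where the heart reads depart from Nebl-202; capitals mark each exon, all coding, with 12 transcript bases on each side.
Nebl-202 exon 9: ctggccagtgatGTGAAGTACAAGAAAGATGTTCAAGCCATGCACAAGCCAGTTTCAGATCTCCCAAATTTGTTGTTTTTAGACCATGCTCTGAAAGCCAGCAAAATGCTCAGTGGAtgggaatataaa
Nebl-202 exon 19: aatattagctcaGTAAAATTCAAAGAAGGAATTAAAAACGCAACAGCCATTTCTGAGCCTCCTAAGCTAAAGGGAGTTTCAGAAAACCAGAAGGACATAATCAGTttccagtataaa
Nebl-202 exon 21: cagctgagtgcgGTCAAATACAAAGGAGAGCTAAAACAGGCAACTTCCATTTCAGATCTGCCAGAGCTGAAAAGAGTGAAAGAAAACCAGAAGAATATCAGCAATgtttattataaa

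The 3' end of Nebl varied as well. Of the reads that began at the first exon of Nebl-202, 33 in replicate 2 and 35 in replicate 1, the annotated last exon was entered at its annotated splice site by 19 and 23. A further read in replicate 1 ended at the annotated end of Nebl-202 (17344054) without that splice site. Others ended at internal 3' ends that the annotation gives to shorter transcripts: that of Nebl-204 with 5 and 5 reads, that of Nebl-212 with 5 and 2, and that of Nebl-208 with 1 and 3. The first exon of Nebl-201, which starts the LIM-domain form of the gene, began 1 read in replicate 2 and 0 in replicate 1. Single-exon genomic models had 11 and 5 reads.

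Synpo2l, an actin-associated protein of heart and skeletal muscle, lies on chromosome 14 (20658946 to 20668354, minus strand). Single-exon models at its 3' end, classed as genomic and pooled, had 34 of 78 reads in replicate 2 and 26 of 48 in replicate 1. These are 43.6% (32.4 to 55.3) and 54.2% (39.2 to 68.6). Synpo2l-202, with 4 exons and a coding length of 2934 nt, had 29 and 17 reads. Synpo2l-203, which begins at a later first exon, had 3 reads in each library. Spliced reads began at the first exon of Synpo2l-202 in 31 and 18 cases, and at that of Synpo2l-201 in none.

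Sorbs2, an adaptor with SH3 domains that binds actin regulators and is known in heart as ArgBP2, had its reads spread over many models. The gene lies on chromosome 8 (45507788 to 45827906, plus strand), and its 77 reads in replicate 2 and 41 in replicate 1 fell on 74 models. Known transcripts held 1 read and 0 reads, although 36 transcripts are annotated. The most read models were pooled last-exon fragments classed as incomplete, with 9 and 0 reads, a 25-exon model that carries the 615-nt exon with 7 and 0, and pooled single-exon models classed as genomic, with 2 and 5. The difference in the first of these, at an unadjusted p of 0.0263 and adjusted p = 0.452 by the exact Fisher test, was not called. Counted by place in place of class, single exons at the 3' end held 9 of 77 reads (11.7%) in replicate 2 and 5 of 41 (12.2%) in replicate 1. On the opposite strand of the gene lay 36 reads in replicate 2 and 15 in replicate 1, which were not counted as Sorbs2.

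Heart reads of Sorbs2 had first exons that ended where 3 of its annotated first exons end. The exon that ends at 45628272 began 14 reads in replicate 2 and 4 in replicate 1, the exon that ends at 45658471 began 19 and 9, and the exon that ends at 45658941 began 12 and 9. An internal exon of Sorbs2-201 (chr8:45658803-45658941) ends there too, and all 33 covering reads in replicate 2 and all 13 in replicate 1 included it. Whether the 12 and 9 reads began at a first exon or are parts of longer transcripts was not tested. The most distal exon, which ends at 45507957 and starts Sorbs2-201, began none. Further along the gene, the 1581-nt exon of Sorbs2-201 (chr8:45794978-45796558) was skipped by all 56 covering reads in replicate 2 and all 30 in replicate 1, which allows inclusion of up to 5.36% and 10%. This exon was singled out after its values were seen. A long form of the protein with an added zinc finger is known from brain; whether this exon encodes it was not checked.

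Of 9 alternative member exons that could be tested, 8 were in Sorbs2. The 615-nt exon (chr8:45746555-45747169) was included by 33 of 44 reads in replicate 2 and 15 of 24 in replicate 1, or 75.0% (59.7 to 86.8) and 62.5% (40.6 to 81.2). It is an internal exon of no annotated transcript, but the annotated coding transcripts Sorbs2-205 and Sorbs2-208 end inside it, at 45746589 and 45746632. The 27-nt exon was included by 42 of 44 and 18 of 22 reads. The 159-nt exon stood at 88.2% (76.1 to 95.6) and 82.1% (63.1 to 93.9), the 84-nt exon at 90.4% (79.0 to 96.8) and 89.7% (72.6 to 97.8), and the 57-nt exon at 86.5% (74.2 to 94.4) and 86.7% (69.3 to 96.2). The other 3, of 56, 93 and 93 nt, were included by at most 4 of 45 reads in replicate 2 and 1 of 22 or 23 in replicate 1. Among the 5 exons that most reads included, 27 nt, 57 nt, 84 nt, 159 nt and 615 nt all divide by 3.

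Inclusion did not differ detectably between the libraries at this depth. No alternative exon was called by Fisher's exact test among 1240 exons tested in all genes (0% called), and 53 had an unadjusted p under 0.05, none of them in a member. The widest gap among the members was that of the 27-nt exon, at 95.5% (84.5 to 99.4) and 81.8% (59.7 to 94.8). The 3 short exons with high inclusion are shown because each adds or removes whole codons; capitals mark the exon, all coding in GENCODE M21, with 12 bases on each side.
Sorbs2 27-nt exon, chr8:45745420-45745446: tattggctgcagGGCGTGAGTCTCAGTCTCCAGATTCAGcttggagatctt
Sorbs2-201 84-nt exon, chr8:45783543-45783626: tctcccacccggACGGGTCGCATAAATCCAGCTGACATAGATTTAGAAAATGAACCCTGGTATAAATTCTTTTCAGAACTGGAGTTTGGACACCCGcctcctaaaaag
Sorbs2-201 57-nt exon, chr8:45785269-45785325: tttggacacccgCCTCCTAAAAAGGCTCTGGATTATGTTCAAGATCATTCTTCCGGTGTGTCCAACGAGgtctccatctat

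**Figure D4:**
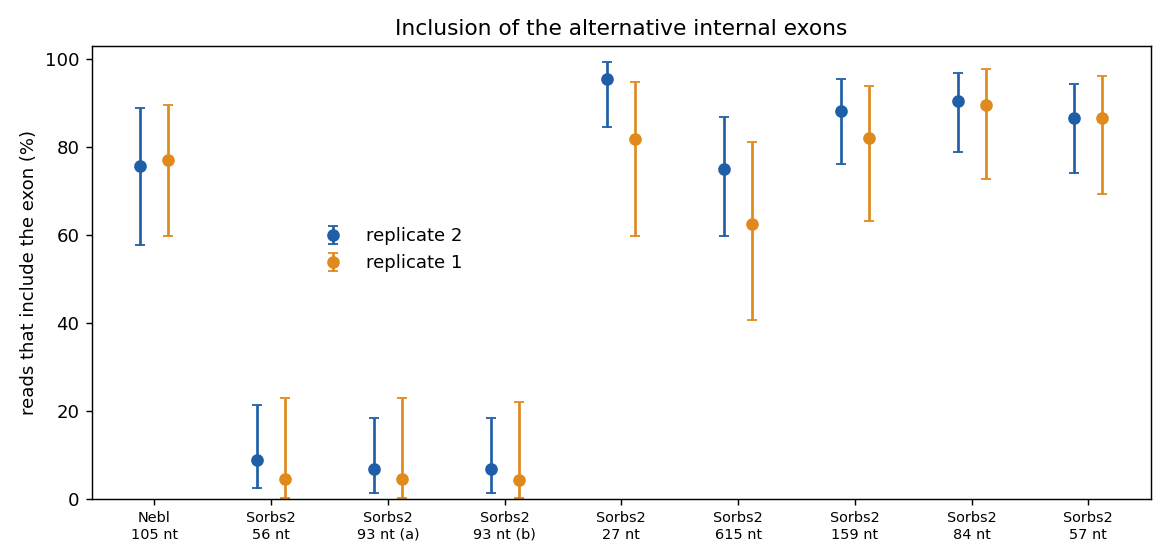
Share of covering reads (%) that include each of the 9 alternative internal exons of Nebl and Sorbs2, in replicate 2 and replicate 1, with 95% Clopper-Pearson intervals; the 93-nt exons (a) and (b) of Sorbs2 start at 45709219 and 45741487. For each exon the intervals of the libraries overlap.

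Fhod3, the cardiac formin, had reads on no known transcript. The gene lies on chromosome 18 (24708623 to 25133501, plus strand), and 0 of 146 reads in replicate 2 and 0 of 105 in replicate 1 allow a known share of up to 2.05% and 2.86%. Fragments of the last exon, at most 591 nt long and pooled as 1 model, had the most reads, with 74 in replicate 2 and 50 in replicate 1. A 28-exon model of 5433 nt had 42 and 24 reads. It has the exons of the 27-exon coding transcript Fhod3-201 with 1 added, and the third model, with 7 and 6 reads, is an 11-exon 3' part of the same chain.

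The added Fhod3 exon is 24 nt long (25124368 to 25124391), or 8 codons, and was singled out after its values were seen. It was included by 69 of 69 covering reads in replicate 2 and 47 of 49 in replicate 1, or 100% (94.8 to 100) and 95.9% (86.0 to 99.5). No annotated transcript of Fhod3 holds it as an internal exon. However, a short annotated transcript without a coding sequence, with 3 exons and 368 nt, begins at 25124361 and ends at 25130694. Its start lies just before the added exon, so its first exon appears to take in the added exon. A muscle form of this formin, with a short added stretch near its end that is phosphorylated, is known; whether this exon encodes that stretch was not checked. The 96-nt exon, internal to 1 annotated transcript, and the 357-nt exon, internal to 2, were each included by 50 of 51 reads in replicate 2 and 29 of 30 in replicate 1.

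The share of reads that ran from an annotated first exon to an annotated last exon differed widely among the members. It was highest for Tcap, at 94.3% in replicate 2 and 95.2% in replicate 1, and for Myoz2, at 92.4% and 91.6%. Actn4 had 72.9% and 79.5%, Actn2 58.2% and 61.5%, Sorbs2 55.8% and 53.7%, Nebl 39.6% and 53.5%, Synpo2l 43.6% and 43.8%, and Fhod3 31.5% and 26.7%. First exons were matched by where they end. The Sorbs2 share thus takes in reads whose first exon ends at 45658941, where an internal exon ends too. The largest other class was 3' parts in Actn2 (40.7% and 36.7%), single 3' exons in Fhod3 (50.7% and 47.6%) and 5' parts in Nebl (31.3% and 27.9%).

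**Figure D5:**
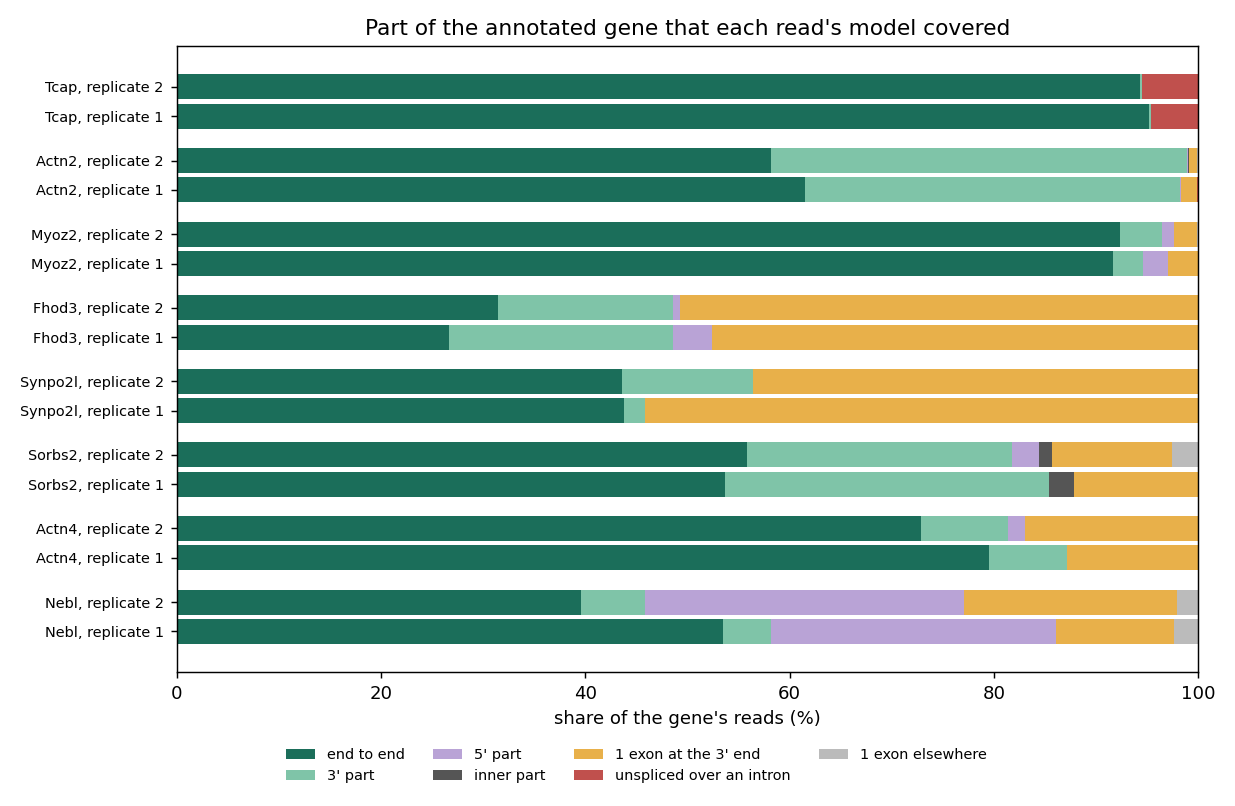
Share of each member's reads (%) by the part of the annotated gene that the read's model covers, with replicate 2 above replicate 1 for each gene; Actn1 is left out for its few reads. Tcap and Myoz2 are mostly end to end, Actn2 is split between end to end and 3' parts, and Nebl has the largest 5' part.

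The share of the most read model was also tested between the libraries, with pooled single-exon models of a class counted as 1 model. With Fisher's exact test, adjusted in the same way, 2.01% of 3938 genes that had at least 20 reads per library were called, and 0 of the 8 members tested. Actn2-201 and the top Sorbs2 model were the 2 members with an unadjusted p under 0.05, and the lowest adjusted p was 0.452. New spliced models held 51.9% of Sorbs2 reads in replicate 2 and 51.2% in replicate 1, 41.7% and 55.8% of Nebl reads, and 0.182% and 0.185% of Tcap reads.

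The paralogues of the members had lower levels than the 3 highest members, or no reads. Of 11 paralogues, Actn3, Myoz1 and Myoz3 had no reads, Neb (nebulin) had 1 read in replicate 2 and 3 in replicate 1, and Fhod1 had 1 and 0. Nrap, a nebulin relative of intercalated discs, was the highest at 209 ± 49.4 CPM, above Nebl in both libraries. Its log2 ratio was 0.48 (exact binomial test, adjusted p = 0.0637), and 0 of the 6 paralogues tested were called. Synpo2 had 50.3 ± 3.45 CPM, Synpo 47.4 ± 0.772, Sorbs3 33.9 ± 2.77 and Lasp1 23.6 ± 0.479 (SD, n = 2 each).

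Among 36 partner genes of the Z-disc, all were tested, 4 were called higher and 6 lower in replicate 2, where 1.36% and 2% of all genes were called, and their median log2 ratio was -0.18 beside -0.06 over all genes. Among the highest were Actc1 (cardiac actin) at 3143 ± 236 CPM, Des (desmin) at 2476 ± 292, Csrp3 (muscle LIM protein) at 1819 ± 225, Cryab (alpha B-crystallin) at 1556 ± 186 and Fhl2 at 1147 ± 248 CPM. Csrp3 (log2 ratio 0.25) and Cryab (0.24) were called higher in replicate 2. Actc1 (-0.15), Des (-0.24) and Fhl2 (-0.45) were called lower. The partner calls were made by total mouse reads, and whether each holds with TMM or DESeq2 factors is not given here. Small ratios are called more easily in genes with many reads, and the shares over all genes were not matched for level. By mean level Actn2 stood between Des and Csrp3, although Csrp3 was above Actn2 in replicate 2, and the libraries of Tcap and Actc1 overlapped.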

How the data were processed

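The authors deposited whole-number read counts per transcript model for each library, with an annotation of all models; the counts are not normalized. Per the labels and the text deposited with the files, mm10 and GENCODE M21 were used, and the annotation's source column names TALON; which aligner and filters were run is not given in the sources used here. Collapsing reads into models by the authors fixes the ends of each model, so single reads' ends are not seen.

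Counts were summed per gene name and scaled per 1e6 mouse reads, spike-ins left out. Spliced models were matched between libraries by intron chain. Single-exon models that are not known transcripts were pooled by gene and class, and each pool was counted as 1 model. An exact binomial test (at least 10 reads in both libraries together), and Fisher's exact tests of the top model share and of internal exon inclusion (at least 20 reads in each library, inclusion 5 to 95%) were adjusted by Benjamini-Hochberg at 0.05 and tested on simulated data. The simulated counts held counting error only, so they cannot show how the tests behave where libraries differ by more than that. The 1 group left no design for edgeR's quasi-likelihood test, so edgeR 4.0.16 (TMM) and DESeq2 1.42.0 gave scalings only. Intervals are 95% Clopper-Pearson and cover counting error only; a count of 0 was read as up to 3 reads. The libraries differed by a mean chi-square of 2.58 per gene, so they are not 1 set of reads deposited again. This is more than counting error alone gives, so the binomial p-values do not take in the whole spread between the libraries. Both libraries formed 1 group.

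Members, gene lists and tests were chosen with earlier results of these data known. Text names all members, each one's 3 most read models, new spliced models with at least 5 reads in each library, alternative exons, all paralogues and the 6 highest partners, except that some of these are not reported here; other items say so. Sequences are GENCODE M21 transcripts. Alternatives covered scaling, minimums, model classes and each library alone. Python 3.11.15, scipy 1.17.1 and R 4.3.3 were used.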

Additional observations from a re-analysis of the deposited data

Results flagged for a closer look

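A signal outside the comparisons lay opposite Sorbs2. A new single-exon locus on the minus strand of chromosome 8 (45826115 to 45827592 in replicate 1), inside the last exon of Sorbs2, had 26 reads in replicate 2 and 12 reads in replicate 1, above the 3 reads that a count of 0 allows. In replicate 2 it ran from 45826425 to 45827592. The annotated transcripts Sorbs2-234 and Sorbs2-207 end at these 2 positions. With 1 exon the locus has no intron to show its strand, and whether its reads are Sorbs2 reads given the wrong strand was not tested. Reads on the strand opposite Sorbs2 came to 36 and 15 in all, beside 77 and 41 on Sorbs2 itself. They came to 11 and 5 opposite Fhod3, 7 and 3 opposite Actn2 and 6 and 2 opposite Myoz2, and to at most 3 in a library opposite each other member. No control samples exist to set these values against.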

How the results depend on the processing

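Scaling decided which member was called between the libraries: 1 member passed under each of the 5 alternatives, Tcap with TMM and DESeq2 factors and Actn2 with no minimum, with known transcripts only and without incomplete and genomic models. Genes called higher in replicate 2 numbered 120 by total mouse reads and 193 under either TMM or DESeq2 factors, and genes called lower 177 against 95 and 95, or 111 with known transcripts only. TMM and DESeq2 factors turned the uncalled log2 ratio of Fhod3 to 0.028 and 0.026. With them the median log2 ratio of all genes was 0.03, beside -0.06 by total mouse reads. Without incomplete and genomic models, 2 genes in place of 79 had a different top share, and none was a member. With known transcripts only the mean level of all 9 members moved by more than 1 SD, Fhod3 to 0 CPM and Actn2 to 1188 CPM; inclusion of the 9 alternative exons could not be given, since too few reads on known transcripts covered them. Without replicate 1 or without replicate 2, levels and shares of the members moved by less than 1 SD, which holds for any mean of 2 values. No paired analysis was possible because the series has 1 group. Depth limits the statements on Actn1, Nebl, Actn4, Sorbs2 and Synpo2l, whose log2 ratios carry counting intervals wider than 1.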
